A study of Mus musculus with 19 samples.

Results

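ERV1 is the family of endogenous retroviruses whose members are most closely related to the gammaretroviruses. The members were taken from the counts of transposable elements (TEs) in 19 RNA-seq libraries of mouse bone-marrow cells, as every subfamily that the count tables place in family ERV1 and class LTR. This gave 136 of 1071 TE subfamilies. The other LTR families held 279 (ERVK), 111 (ERVL) and 104 (ERVL-MaLR) subfamilies. Of the 136 members, 26 are internal regions, recognised by "-int" in the name, and 113 were listed in all 3 cell sets (135 in the young, 119 in the old and 119 in the LK set).

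An endogenous retrovirus is the remnant of a retroviral infection of the germ line. A full copy has an internal region, which carries or once carried the viral genes, between a pair of long terminal repeats (LTRs) that hold the promoter and the polyadenylation signal. Many copies are solitary LTRs, left when the flanking repeats recombined and the internal region was lost. In the mouse, ERV1 includes murine leukemia virus (MLV), the retrotransposon VL30, the GLN and MuRRS elements and the Y-chromosome repeat MuRVY. It also holds older subfamilies named MER or LTR with a number. Most copies are silenced through histone H3 lysine 9 methylation, written by Setdb1 and recruited by Trim28 with zinc finger proteins, and through DNA methylation.

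The study addressed what mutant Asxl1, a chromatin regulator gene often mutated in clonal hematopoiesis, does in blood cells. Myeloid cells positive for CD11b were taken from animals of 4 months (young) as 3 mutant (MT) and 4 wild-type (WT) libraries, and from animals of 18 months (old) as 3 MT and 3 WT libraries. Progenitor or stem cells, labelled LK, were taken at 18 months as 3 MT and 3 WT libraries. The labels give neither the allele, the promoter nor any Cre driver, and they do not say whether replicates are separate animals, so p-values measure only the spread between these libraries, which may be technical.

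Gene counts ranged from 26251822 to 68260809 per library. Itgam, which encodes CD11b, was at 1480 to 1818 CPM (counts per 1000000 gene counts, scaled with TMM factors) in young, 3154 to 3462 in old and 45.2 to 85.4 in LK libraries, and Kit, the marker of LK cells, was at 169.7 to 219.6 CPM in LK libraries. Ddx3y, a Y-linked gene, was at 104.4 and 109.4 CPM in young MT replicate 3 and young WT replicate 4, at 0 to 0.0369 in the other 5 young libraries, and at 50.2 or more in every library of 18 months. Replicates 2 and 3 of each 18-month group were closer to each other (chi-square per degree of freedom over genes, 3.10 to 7.10) than either was to replicate 1 (15.4 to 51.0). In bulk RNA, fewer cells of a type and less RNA per cell cannot be told apart.

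ERV1 counts came mostly from a few mouse-specific elements. MMVL30-int (the VL30 internal region), RLTR4_MM-int and MuLV-int (MLV internal regions) and RLTR4_Mm (the MLV LTR) were among the 5 members with the most counts in all 3 sets, with RLTR6_Mm (the VL30 LTR) as the fifth in Cd11b cells and MMERGLN-int (the GLN internal region) in LK cells. These 5 members held 71.4 to 75.8% of all ERV1 counts in young, 83.7 to 85.5% in old and 80.9 to 87.0% in LK libraries. A longer element collects more counts, and the lengths of the counted copies were not used here, so counts are compared between libraries and not between subfamilies. The 3 MLV members together were at 1784 to 2269 CPM in young, 1866 to 2034 in old and 1521 to 2112 in LK libraries. The 5 VL30 members were at 1736 to 2708 CPM in young and 2364 to 2855 in old Cd11b libraries and at 362.4 to 459.5 in LK libraries. MLV thus made up 59.8 to 65.2% of ERV1 counts in LK cells and VL30 46.7 to 51.9% in old Cd11b cells.

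**Figure D1:**
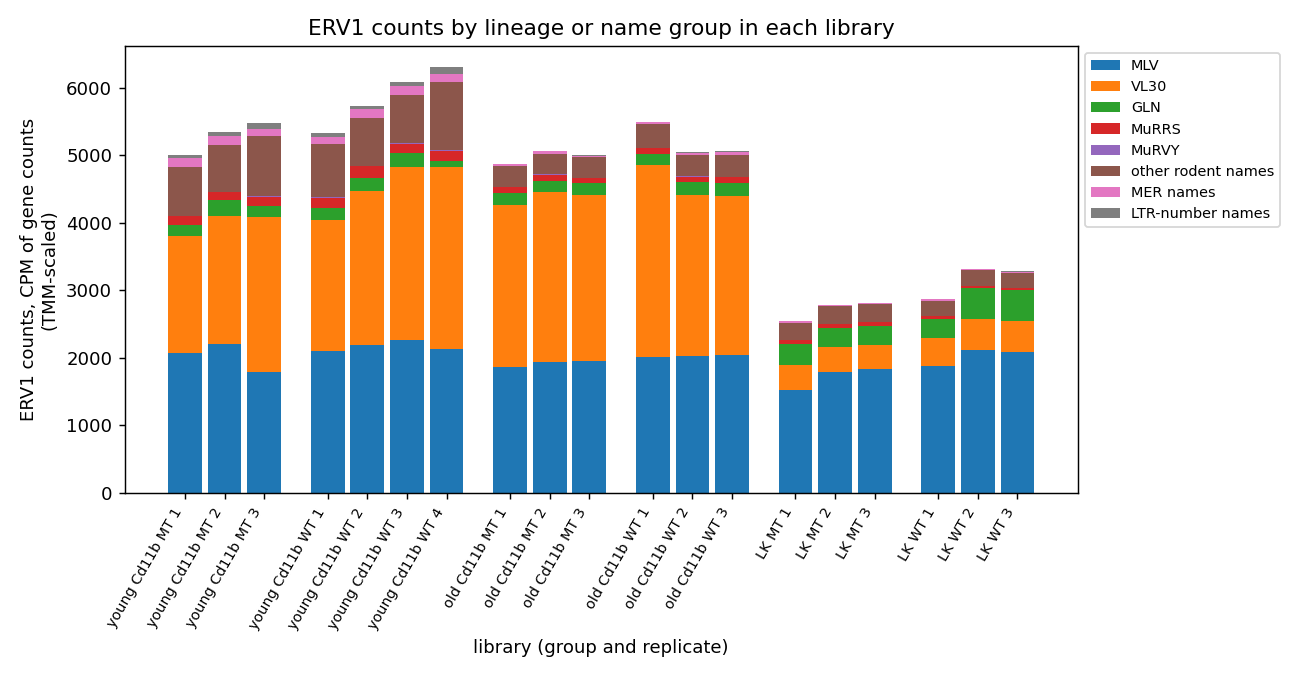
Stacked bars give the ERV1 counts of each of the 19 libraries in CPM of gene counts, divided into MLV (3 members), VL30 (5), GLN (2), MuRRS (11), MuRVY (2) and the members with other rodent, MER and LTR-number names (40, 44 and 29). The VL30 part is smallest in the 6 LK libraries (362.4 to 459.5 CPM), and the part with other rodent names is largest in the 7 young libraries.

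All ERV1 counts were then summed per library and compared between genotypes. In LK cells they stood at 3188, 3318 and 3324 per 1000000 gene counts in MT and at 3515, 4225 and 4229 in WT libraries, so that the groups did not overlap. The means were 3277 ± 76.5 (SD, n = 3) and 3989 ± 411 (SD, n = 3), with a two-sided exact permutation p of 0.1, which is the smallest that 3 against 3 libraries can give (adjusted over the 3 sets, 0.3). In young Cd11b cells the means were 5339 ± 129 in MT (SD, n = 3) and 5768 ± 424 in WT (SD, n = 4), with an exact permutation p of 0.2 (smallest possible 0.0286, adjusted 0.3), and the ranges overlapped. Old Cd11b cells had 4076 ± 13.3 in MT (SD, n = 3) and 4219 ± 236 in WT (SD, n = 3), with an exact permutation p of 0.3 (smallest possible 0.1, adjusted 0.3). The old difference of -142.6 came to -6.66 without WT replicate 1, the library at 4491. None of the 3 totals passed a threshold of 0.05 after adjustment.

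Single members were tested between MT and WT LK cells with the quasi-likelihood test of edgeR, adjusted over all TE subfamilies tested and called at an adjusted p under 0.05. Of 80 ERV1 members tested, 26 were called (32.5%), 18 higher and 8 lower in MT. Among all 813 TE subfamilies tested 20% were called, 15.3% higher and 4.8% lower, and 29.8% of 14113 genes were called. The median log2 fold change was 0.19 over the ERV1 members tested and 0.08 over all TE subfamilies. In all 26 the 3 MT libraries did not overlap the 3 WT libraries. The calls were made on these same libraries, so this adds no support, and its share over all TE subfamilies was not computed. Of the 26, 1 member changed 2-fold or more. Scaled by TE counts instead of gene counts, 15 of 80 members were called, 7 higher and 8 lower, and 116 of 814 TE subfamilies. The number rested on single libraries: it was 7 of 83 without WT replicate 2, where 41 of 827 TE subfamilies were called. Without WT replicate 3 it was 11 of 83 (56 of 833 TE subfamilies), and without MT replicate 2 it was 11 of 84 (52 of 833). Without MT replicate 3 it was 15 of 82 (86 of 830). With replicates 2 and 3 of each group summed it was 1 of 86 (13 of 843).

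Of the 8 members that fell in LK MT cells, 6 were internal regions, 4 of them abundant. RLTR4_MM-int was at 556.8, 651.0 and 668.1 CPM in MT and 739.2, 905.4 and 893.8 in WT libraries. Every MT library lay below every WT library, with a log2 fold change of -0.47 ± 0.09 (SE) and an edgeR adjusted p of 0.00141. MuLV-int, a second MLV internal region, was at 567.8, 650.7 and 671.7 CPM in MT and 731.4, 823.5 and 821.4 in WT (-0.36 ± 0.08, SE; edgeR adjusted p 0.00533). The VL30 internal region MMVL30-int stood at 247.7, 237.6 and 232.0 CPM in MT and 295.3, 335.3 and 329.5 in WT (-0.45 ± 0.08, SE; edgeR adjusted p 0.000544). In each of these 3 elements WT replicate 1 was the WT library nearest to the MT libraries. RLTR6-int, also of VL30, fell by 0.28, RLTR14-int by 0.55 and MERV1_I-int by 0.56 on the log2 scale (edgeR adjusted p 0.0059, 0.00203 and 0.0104), the latter 2 at low levels.

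The remaining called members that fell were RLTR48B and MLTR12, both without "-int" in the name. RLTR48B was at 1.67, 1.80 and 1.93 CPM in MT and 3.18, 3.45 and 3.48 in WT libraries, a log2 fold change of -0.93 ± 0.13 (SE; edgeR adjusted p 7.29e-05). It was the only one of the 26 called under each of 13 alternative fits, with log2 fold changes from -1.006 to -0.90. MLTR12 was at 0.981 to 1.20 CPM in MT and 1.54 to 1.93 in WT (-0.70, edgeR adjusted p 0.00679).

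The 18 members that rose were mostly LTRs at low levels. RLTR41C stood at 20.003, 23.9 and 22.4 CPM in MT and 17.7, 14.5 and 13.98 in WT libraries (0.49 ± 0.09, SE; edgeR adjusted p 0.000594). LTRIS3, an LTR of the MuRRS group, was at 21.6, 31.2 and 28.8 CPM in MT and 18.0, 11.7 and 10.8 in WT (0.98 ± 0.24, SE; edgeR adjusted p 0.0497, called in 6 of 13 alternative fits). In both, WT replicate 1 was again the WT library nearest to MT. Below 10 CPM, the called LTRs RLTR14_RN, RLTR1C, RLTR1A2_MM, MER34A1, LTR65, RLTR23, RLTR24B_MM, RMER21B, LTRIS2, RLTR1B, LTRIS_Mm and RLTR14 rose by 0.64, 0.61, 0.56, 0.55, 0.54, 0.52, 0.50, 0.42, 0.42, 0.41, 0.35 and 0.35 on the log2 scale. Of these, RMER21B and LTRIS_Mm were called in 1 of 13 alternative fits and RLTR1B and RLTR24B_MM in 4. RMER5, at 19.8 to 20.8 CPM in MT and 15.5 to 17.2 in WT, rose by 0.29. The internal regions that rose were MER34B-int (0.37), RLTR1B-int (0.21) and MER31-int (1.09). MER31-int, the member past 2-fold, rested on 20, 16 and 23 counts in MT and 10, 7 and 6 counts in WT libraries. MER31-int and RLTR1B-int were called in 1 of 13 alternative fits.

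**Figure D2:**
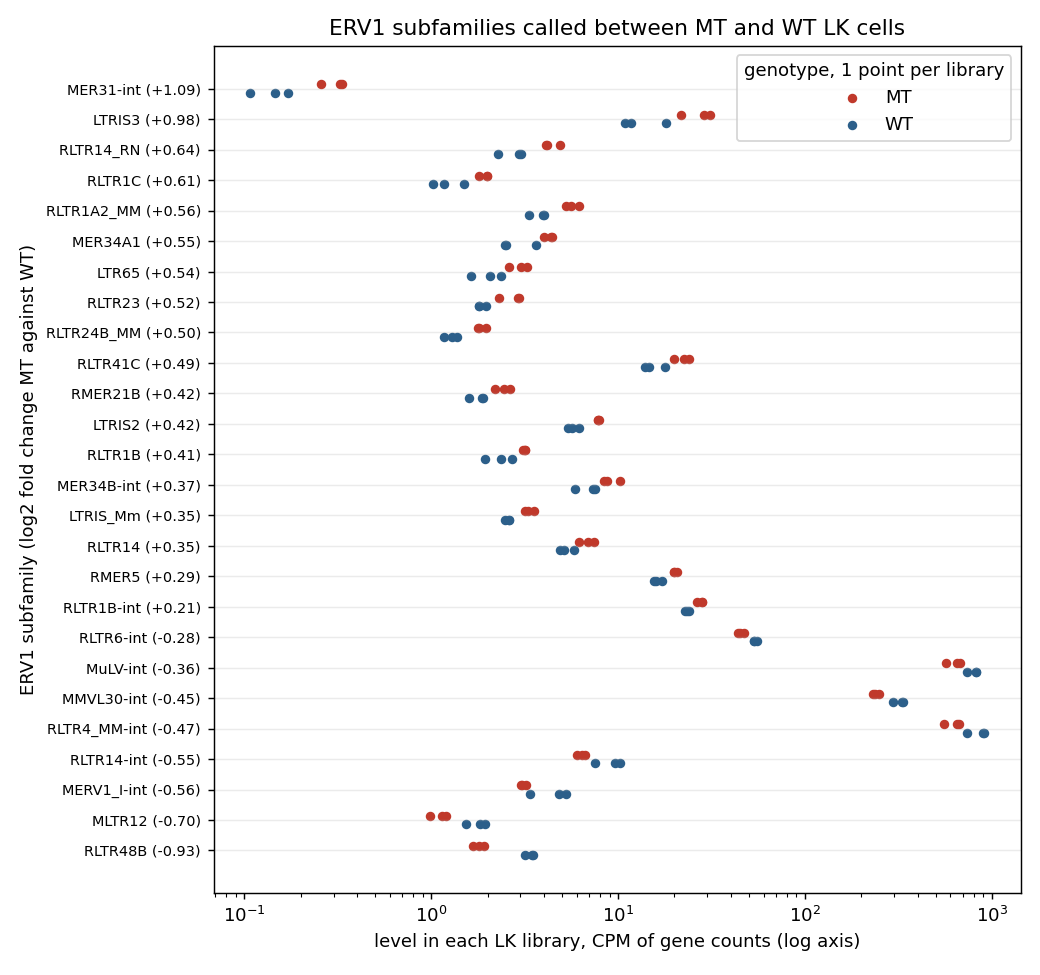
Each row is 1 of the 26 ERV1 members called between MT and WT LK cells, with its log2 fold change beside the name, and each point is 1 library on a logarithmic CPM axis (red, MT; blue, WT). The 3 most abundant of them, MMVL30-int, RLTR4_MM-int and MuLV-int, lie lower in MT, and the 18 members that rose include none above 31.2 CPM.

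Internal regions and LTRs differed in their direction in LK cells. Of 16 internal members tested 9 were called, 3 higher and 6 lower, and their median log2 fold change was -0.26; of 64 other members 17 were called, 15 higher and 2 lower, with a median of 0.23. Relative to TE counts the medians were -0.34 and 0.15, with 6 internal members called, all lower, and 9 others, 7 higher and 2 lower. RLTR4_Mm, the MLV LTR, was at 396.1, 492.9 and 488.9 CPM in MT and 400.5, 383.1 and 373.4 in WT libraries, a log2 fold change of 0.22 that was not called (edgeR adjusted p 0.0567). The VL30 LTR RLTR6_Mm showed 0.11 (edgeR adjusted p 0.241). The ratio of RLTR4_MM-int to RLTR4_Mm counts, which does not depend on the scaling of a library, was 1.41, 1.32 and 1.37 in MT and 1.85, 2.36 and 2.39 in WT libraries. For MMVL30-int against RLTR6_Mm it was 3.85, 3.51 and 3.48 in MT and 4.76, 5.53 and 5.71 in WT, and for RLTR14-int against RLTR14 it was 1.04, 0.872 and 0.888 in MT and 1.29, 2.10 and 1.88 in WT. The GLN ratio, MMERGLN-int against MMERGLN_LTR, was 9.63, 9.01 and 9.39 in MT and 13.01, 16.1 and 17.2 in WT. MT lay below WT in every library for all 4 ratios.

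Over all members, the ratio of internal to other ERV1 counts in LK cells was 2.26, 2.12 and 2.17 in MT and 2.87, 3.68 and 3.75 in WT libraries (means 2.18 ± 0.0749 and 3.43 ± 0.492, SD, n = 3 each). The two-sided exact permutation p was 0.1, the smallest possible, and 0.3 after adjustment over the 3 sets. The ratio was 1.96 ± 0.248 in young MT (SD, n = 3) and 1.97 ± 0.164 in young WT libraries (SD, n = 4; exact permutation p 0.971). Old MT libraries had a ratio of 3.76 ± 0.0954 (SD, n = 3) and old WT libraries one of 3.69 ± 0.307 (SD, n = 3), with an exact permutation p of 0.7. These ratios were chosen after the fold changes of the members had been seen. Other measures moved with genotype in the same LK libraries. The log2 fold changes of 12556 genes with a known length fell with that length (Spearman's rho across genes -0.474, against 0.189 in old and 0.0533 in young cells; genes are not independent replicates), and internal regions are longer than LTRs. The summed level of 8 myeloid markers was 11753 to 16014 CPM in LK MT and 10012 to 11484 in LK WT libraries, with 1 of the 8 markers under 1 CPM, and the sum of 6 progenitor markers was 901.6 to 960.5 and 974.2 to 989.6 CPM. The sums of 4 megakaryocyte markers (203.3 to 295.4 against 161.9 to 197.2 CPM) and of 4 T and NK cell markers (185.9 to 239.0 against 150.4 to 185.1 CPM) did not overlap either, whereas those of 4 B cell and 4 erythroid markers did. Within these 2 sums, Pf4 (76.7 to 108.2 against 50.3 to 62.7 CPM) and Nkg7 (179.5 to 230.8 against 145.0 to 176.3 CPM) did not overlap. Their other markers, Itga2b, Gp9, Ppbp, Klrb1c, Cd3e and Cd3g, overlapped between MT and WT. Most of the myeloid sum came from Mpo (8156 to 9912 against 7480 to 8141 CPM). In the myeloid sum Itgam and Ly6g overlapped, and the other markers were higher in MT without overlap. In the progenitor sum Cd34, Gata2 and Meis1 overlapped, and Kit, Flt3 and Myb were lower in MT without overlap. The part of length and of cell composition in the ERV1 differences was not tested.

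**Figure D3:**
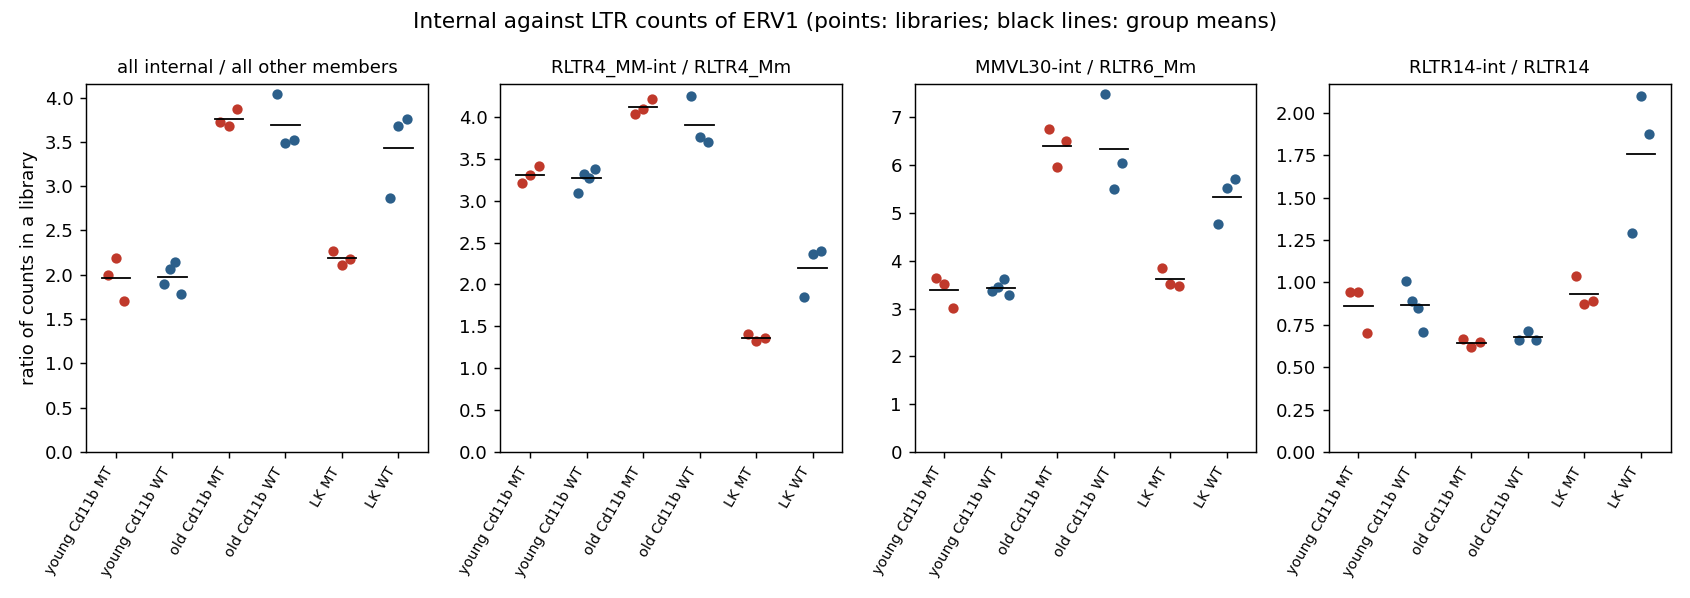
Points are libraries and black lines group means of count ratios within a library, from left to right all internal against all other ERV1 members, RLTR4_MM-int against RLTR4_Mm, MMVL30-int against RLTR6_Mm and RLTR14-int against RLTR14, with axes that start at 0. In LK cells the 3 MT libraries lie below the 3 WT libraries in each panel (2.12 to 2.26 against 2.87 to 3.75 in the first), whereas MT and WT overlap in young and old Cd11b cells in the first panel.

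GLN showed a wide spread in LK WT cells. MMERGLN-int was at 289.2, 251.0 and 251.6 CPM in MT and at 254.6, 434.5 and 436.0 in WT libraries. The log2 fold change of -0.54 was not called (edgeR adjusted p 0.241), since WT replicate 1 lay within the range of the MT libraries. Among the other lineage members tested and not called in LK cells, RLTR6C_Mm (0.51), MuRRS4-int (0.35) and MURVY-LTR (0.38) had edgeR adjusted p-values of 0.073, 0.0567 and 0.0712, and MURVY-int was at -0.29 (0.385).

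In Cd11b cells no ERV1 member was called between MT and WT. In old cells 0 of 91 members tested passed edgeR's test, with 15 at an unadjusted p under 0.05 and 1 called by DESeq2 (0.458% of 873 TE subfamilies and 0.336% of 13398 genes were called). The 3 members with the smallest p were RLTR24B_MM, RodERV21-int and RLTR1B, none of them called (edgeR adjusted p 0.059, 0.237 and 0.237). RLTR24B_MM was at 19.5, 19.1 and 18.8 CPM in MT and 23.04, 24.9 and 24.5 in WT libraries, which did not overlap (-0.34 ± 0.08, SE), and it was the member that DESeq2 called. The median log2 fold change was -0.11 over ERV1 and -0.02 over all TE subfamilies. Without WT replicate 1, 15 of 92 members were called (16.3%), 4 higher and 11 lower, close to the 15.1% of all TE subfamilies called without it. The largest of these rises was in LTRIS3, at 18.8, 21.5 and 19.9 CPM in MT and 18.6, 12.5 and 11.5 in WT libraries (0.74 without WT replicate 1, edgeR adjusted p 2.9e-06, and 0.49 with it, 0.319).

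In young cells 0 of 111 members tested were called by edgeR or by DESeq2, with 3 (edgeR) and 2 (DESeq2) at an unadjusted p under 0.05; 0% of 973 TE subfamilies and 0% of 13755 genes were called. The smallest p-values belonged to LTRIS3 (-0.60), LTR37-int (0.83) and LTR75_1 (-0.88), none called (edgeR adjusted p 0.9999 each). LTRIS3 was at 28.2, 26.6 and 29.3 CPM in young MT libraries and at 57.5, 44.4, 46.9 and 21.6 in young WT libraries. The last of these, WT replicate 4, was the lowest young library, and it is 1 of the 2 young libraries with Ddx3y. Without it LTRIS3 was called (-0.82 ± 0.19, SE; edgeR adjusted p 0.0126). With the level of Ddx3y as a covariate the called members were MMVL30-int (-0.30, edgeR adjusted p 0.0341) and RLTR48B (-0.46, 0.0147) instead. Over all TE subfamilies, 1 of 969 was called without WT replicate 4 and 4 of 973 with the covariate.

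Whether the genotype difference changed with age was tested as an interaction. Of 110 ERV1 members tested by edgeR none was called (0% of 977 TE subfamilies; 4 members had an unadjusted p under 0.05 by edgeR and 4 by DESeq2, which called none). LTRIS3 had the smallest p, with an interaction of 1.10 ± 0.29 (SE; edgeR adjusted p 0.248), followed by LTR73 and LTR37-int (edgeR adjusted p 0.999 for both). The LTRIS3 interaction was called without young WT replicate 4 (1.32, edgeR adjusted p 6.3e-05) and without old WT replicate 1 (1.34, 0.0198).

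The genotype difference in LK cells was also compared with that in old Cd11b cells (LK minus old). This interaction was called for 18 of 90 members, 13 higher and 5 lower (edgeR; 12.6% of 884 TE subfamilies were called, 9.95% higher and 2.6% lower). Scaled by TE counts, 17 of 89 were called, 10 higher and 7 lower, and 107 of 881 TE subfamilies. Of the 26 members called in LK cells 14 were also called here. The interaction uses the same LK libraries as those calls, so this overlap is no separate support. RLTR24B_MM had the smallest p: its log2 fold change was 0.50 in LK and -0.34 in old Cd11b cells, an interaction of 0.83 ± 0.15 (SE; edgeR adjusted p 0.00109). RLTR1B (0.41 in LK, -0.37 in old cells) and MuRRS4-int (0.35 and -0.17) also had opposite signs, with interactions of 0.77 and 0.52 (edgeR adjusted p 0.00789 and 0.013). The MLV internal region and its LTR had interactions of opposite sign, RLTR4_MM-int at -0.42 and RLTR4_Mm at 0.35 (edgeR adjusted p 0.0278 and 0.0366). MMVL30-int was at -0.41 (edgeR adjusted p 0.0368). The count depended on single libraries, with 5 members without old MT replicate 3, 9 without old WT replicate 3, LK MT replicate 2 or LK WT replicate 2, 10 without old MT replicate 2, 11 without LK WT replicate 3, and 0 when replicates 2 and 3 were summed. Over all TE subfamilies, 54 to 176 were called without 1 library and 0 with the summed replicates.

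Between cell types, WT LK cells were compared with WT old Cd11b cells. Relative to gene counts, edgeR called 70 of 86 ERV1 members, 11 higher and 59 lower in LK cells (85.8% of 853 TE subfamilies were called, 5.51% higher and 80.3% lower). Since the median TE subfamily lay at -1.26, the split depends on the scale. Relative to TE counts, where that median was 0.01, 61 of 84 members were called, 35 higher and 26 lower. On that scale 542 of 844 TE subfamilies were called. MMVL30-int was at 295.3, 335.3 and 329.5 CPM in LK and 2376, 1878 and 1889 in old Cd11b WT libraries (-2.77 ± 0.13, SE; edgeR adjusted p 9.41e-13), and RLTR6_Mm (-2.52) and RLTR6C_Mm (-3.21) were lower too. These 3 VL30 members were lower on both scales (-1.50, -1.26 and -1.94 relative to TE counts). RLTR6B_Mm was higher on both (0.70 and 1.97), and RLTR6-int was lower relative to gene counts (-0.73) and higher relative to TE counts (0.54).

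The MLV members did not move together between the cell types. MuLV-int was at 731.4, 823.5 and 821.4 CPM in LK and 216.1, 226.8 and 226.0 in old Cd11b WT libraries (1.74 ± 0.10, SE; edgeR adjusted p 3.01e-11). RLTR4_MM-int was at 739.2, 905.4 and 893.8 against 1450, 1421 and 1423 CPM, which is -0.85 relative to gene counts and 0.41 relative to TE counts. RLTR4_Mm, at 373.4 to 400.5 and 341.2 to 384.6 CPM, was at -0.03 (edgeR adjusted p 0.81) and 1.24 on the same scales. The 2 members counted here as GLN were higher in LK cells, MMERGLN-int by 1.02 and MMERGLN_LTR by 1.27 (edgeR adjusted p 0.00115 and 0.00013). Also higher were RLTR30D_RN (2.08, at 84.9 to 92.2 against 18.5 to 20.8 CPM), LTR37-int (1.87) and LTR65 (1.35). RLTR1B and RLTR1B-int, which the naming rule groups with GLN but which are counted under other rodent names, were at -2.15 and 0.42. With an average of 50 counts in the group with the higher level, the largest falls were in RLTR24B_MM (-4.33; 1.16 to 1.37 against 23.04 to 24.9 CPM), MER31-int (-4.00), MuRRS4-int (-3.62; 2.51 to 3.34 against 31.8 to 32.6 CPM), LTRIS4 (-3.46) and RLTR6C_Mm. The members named as rising or falling most kept their sign relative to TE counts. Both MuRVY members were lower relative to gene counts (MURVY-LTR -1.43, MURVY-int -1.46) and at -0.15 and -0.20, not called, relative to TE counts.

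**Figure D4:**
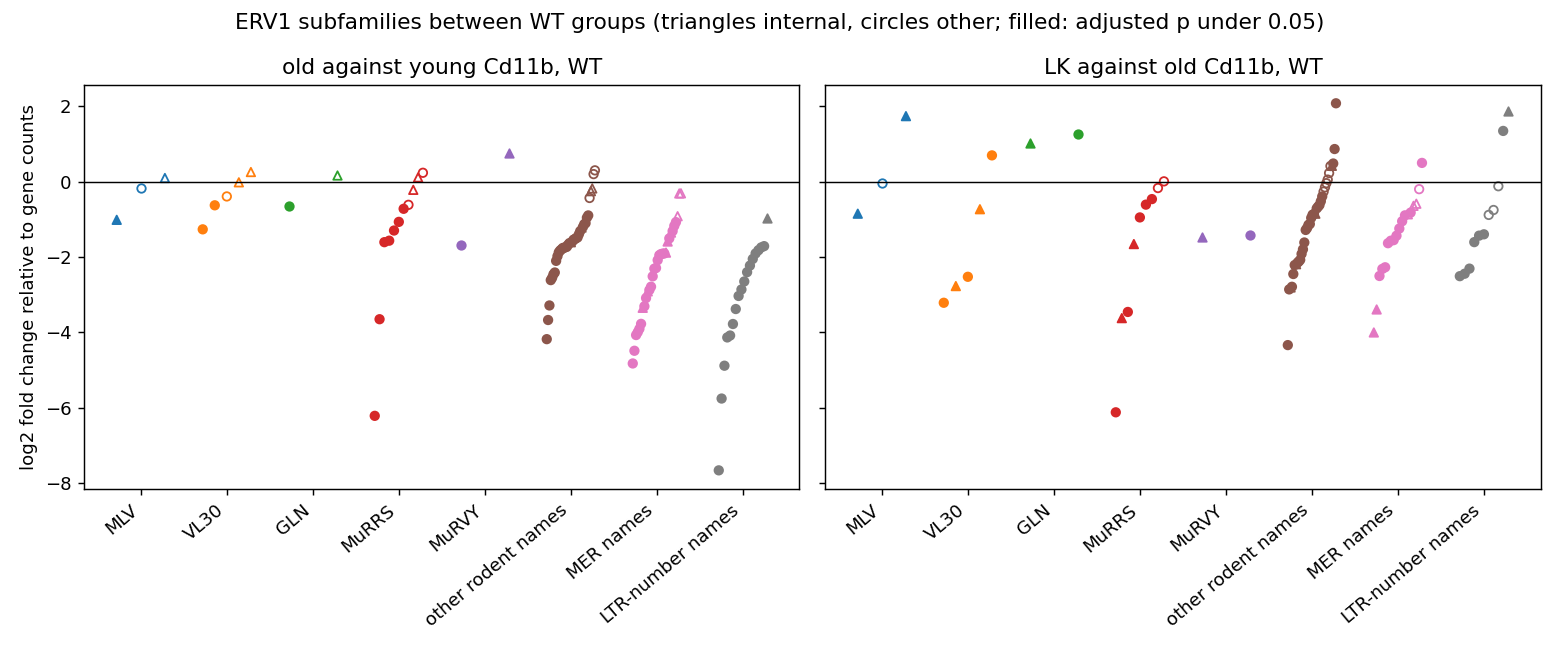
Each symbol is 1 ERV1 member, placed by lineage or name group, with its log2 fold change relative to gene counts in old against young WT Cd11b cells (left) and in LK against old Cd11b WT cells (right); triangles are internal regions, circles other members, and filled symbols have an edgeR adjusted p under 0.05. On the left the members with MER and LTR-number names reach far below 0, with medians of -2.19 and -2.75, while MLV and VL30 members lie nearer to 0, and on the right MuLV-int is at 1.74 and 4 of 5 VL30 members lie below 0 (RLTR6-int lies above 0 relative to TE counts). The median TE subfamily lies at -2.12 in the left panel and -1.26 in the right, and relative to TE counts at -0.03 and 0.01.

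With age, WT old were compared with WT young Cd11b cells. Relative to gene counts, edgeR called 89 of 108 ERV1 members, 1 higher and 88 lower in old cells (91.4% of 965 TE subfamilies were called, 1.97% higher and 89.4% lower). The median was -1.73 over ERV1 and -2.12 over all TE subfamilies. Relative to TE counts 78 of 105 members were called, 53 higher and 25 lower, and 750 of 955 TE subfamilies. Age cannot be told apart from the preparation of the sets, from sex-linked expression or from cell composition. Of the 4 young WT libraries 3 lack Ddx3y, whereas all 3 old WT libraries have it (76.0 to 76.7 CPM). The sum of 8 myeloid markers was 25851 to 32314 CPM in young and 73784 to 95559 in old WT libraries. Within it Mpo (2397 to 4319 against 693.1 to 747.6 CPM) and Elane were lower in old cells. The sum of 6 progenitor markers was 394.4 to 495.5 CPM in young and 167.8 to 170.4 in old WT libraries. The 7SK RNA, counted among the TE subfamilies, was at 6124 to 11880 per 1000000 gene counts in the young libraries and at 3.33 to 5.37 in all others. The level of a subfamily in young and old cells is therefore read here against the other subfamilies.

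Most of the abundant internal regions were not called with age relative to gene counts. MMVL30-int (0.26), RLTR4_MM-int (0.10), RLTR6-int (-0.02), MMERGLN-int (0.17), MuRRS4-int (0.11) and the LTRs RLTR4_Mm (-0.16) and LTRIS4 (0.24) had edgeR adjusted p-values from 0.233 to 0.938. Relative to TE counts, all 3 MLV, all 5 VL30 and both GLN members were called higher in old cells, with MMVL30-int at 2.29 and RLTR4_MM-int at 2.13. MuLV-int was lower, at 216.1 to 226.8 CPM in old and 382.0 to 496.3 in young WT libraries (-1.013, edgeR adjusted p 3.06e-06), but higher by 1.01 relative to TE counts. MURVY-int was the member called higher (0.76, edgeR adjusted p 0.0107; 2.84 relative to TE counts), although without young WT replicate 3 or without old WT replicate 3 no member was called higher. With the level of Ddx3y as a covariate MURVY-int, of the Y-chromosome repeat, was at 0.44 and not called (edgeR adjusted p 0.151). Members with LTR-number names summed to 53.5 to 94.8 CPM in young and 8.42 to 11.1 in old WT libraries, and all 18 tested were called lower (relative to TE counts, 9 of 17 lower and 1 higher). Those with MER names went from 93.8 to 131.3 to 27.3 to 38.0 CPM, with 26 of 30 called lower (relative to TE counts, 10 of 28 lower and 6 higher). Naming asked for an average of 50 counts in the group with the higher level, here the young group, so the sizes of these falls are a description. They were in LTRIS4B, LTR68, LTR48 (-4.13; 11.8 to 31.4 against 0.727 to 1.33 CPM), MER67B (-3.90) and LTR65 (-3.78). LTR68 had 51 to 83 counts in young and 4, 1 and 0 counts in old WT libraries. LTRIS4B rested largely on young WT replicate 2, at 34.9 CPM, against 2.68 to 6.83 in the other young WT libraries. These 5 kept their sign relative to TE counts, where LTRIS4B was not called (edgeR adjusted p 0.0818).

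MER34B-int split the Cd11b libraries without regard to genotype. In young cells it was at 49.1, 48.9 and 1.35 CPM in MT and 1.40, 50.04, 48.97 and 1.69 in WT libraries. In old cells the level was 0.675, 15.2 and 0.843 CPM in MT and 0.685, 14.9 and 14.9 in WT libraries. No Cd11b library lay between these high and low levels, and both genotypes had high and low libraries at both ages. In LK cells the levels were 8.45, 10.3 and 8.72 CPM in MT and 7.498, 7.33 and 5.89 in WT libraries, with no such split. None of the comparisons in Cd11b cells called MER34B-int (edgeR adjusted p 0.9999 in young and 0.942 in old cells).

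**Figure D5:**
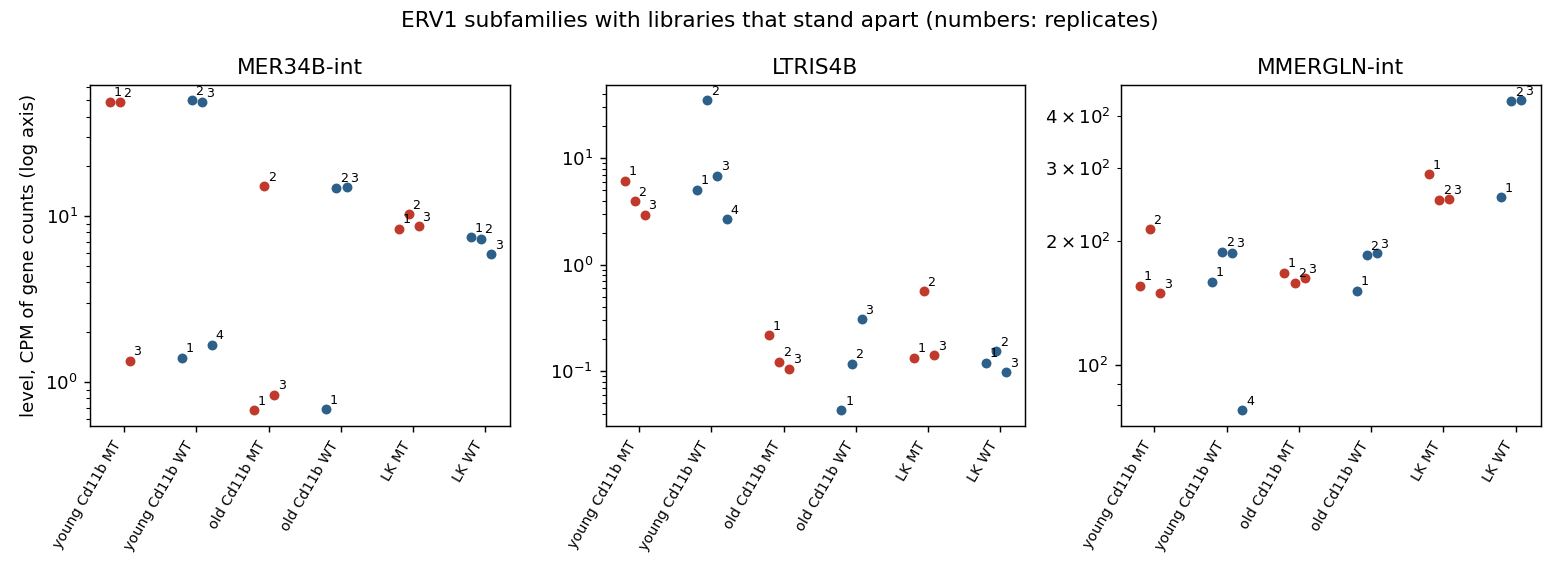
Points are libraries, numbered by replicate, on logarithmic CPM axes for MER34B-int, LTRIS4B and MMERGLN-int in the 6 groups (red, MT; blue, WT). MER34B-int is near 49 CPM in 4 young libraries and near 15 in 3 old libraries and below 1.7 in the other Cd11b libraries, LTRIS4B is high in young WT replicate 2, and MMERGLN-int is high in LK WT replicates 2 and 3.

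MURVY-LTR was highest in the 2 young libraries with Ddx3y, at 15.9 (MT replicate 3) and 16.4 CPM (WT replicate 4), and at 11.6 to 12.9 in the 5 young libraries without it. This was not particular to the Y-named LTR: 61 of 111 ERV1 members tested in young cells were highest in the same 2 libraries, where all TE counts came to 15.02 and 16.91% of gene counts, against 11.4 to 12.88% in the other 5. Those 5 libraries had Xist at 1691 to 1980 CPM. In them the Y-named LTR had counts while Ddx3y was at 0 to 0.0369 CPM.

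Genes that act on ERV1 elements were read from lists. Of 29 genes of the silencing list tested in LK cells, edgeR called 13, 1 higher and 12 lower in MT, against 29.8% of all genes called. That share counts both directions, and the share of all genes called lower was not computed. The median log2 fold change was -0.14 over the list and 0.02 over all genes. Among the lower genes were Atf7ip (-0.64), a partner of the H3K9 methyltransferase Setdb1 (-0.22), the chromatin remodeller Atrx (-0.43), the DNA methyltransferases Dnmt1 (-0.37), Dnmt3a (-0.25) and Dnmt3b (-0.14), and Ehmt1 (-0.20), another H3K9 methyltransferase. Trim33, Cbx3, Hells, Morc3 and Chaf1b fell by 0.24, 0.16, 0.16, 0.15 and 0.12. Mphosph8, a subunit of the HUSH silencing complex, rose by 0.35. Zfp809, the zinc finger protein that recognises the MLV primer binding site, was at -0.19 and not called (edgeR adjusted p 0.118). The count was 22 without LK WT replicate 1, 2 to 4 without either of the other WT libraries or without MT replicate 2 or 3, and 15 without MT replicate 1. These counts are not set against the number of all genes called in the same fits. In young and old Cd11b cells 0 of 29 were called by edgeR and by DESeq2, with 0 and 6 at an unadjusted edgeR p under 0.05.

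Of 17 genes for the entry or restriction of gammaretroviruses, 10 were called in LK cells, 1 higher and 9 lower in MT, with a median of -0.17 (edgeR; 29.8% of all genes were called, with a median of 0.02). The receptors Slc7a1 (ecotropic MLV; -0.46), Xpr1 (xenotropic and polytropic MLV; -0.35), Slc20a2 (-0.24) and Slc20a1 (-0.13) were lower. Among the restriction factors, Serinc3 (-0.99), Zc3hav1 (-0.39), Serinc5 (-0.34) and Apobec3 (-0.17) were lower and Ifitm3 was higher (0.27). The number was 4 or 5 without MT replicate 2 or 3 or without WT replicate 2 or 3. It is not set against the number of all genes called in the same fits. As for the silencing list, the share of all genes called lower was not computed. In old Cd11b cells Serinc3 was the gene called (-0.51 ± 0.04, SE; edgeR adjusted p 0.00476), and in young cells 0 of 17 were called by edgeR and by DESeq2, with 2 at an unadjusted edgeR p under 0.05. Serinc3 was 1 of these 2 (-0.46 ± 0.12, SE), so its value was negative in all 3 sets. No cause of this genotype difference was tested. The median transcript length was 3784 bases over 28 silencing genes and 3268 bases over the 17 entry or restriction genes, against 2599 bases over 12556 genes tested in LK cells, and the part of length in these counts was not tested.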

How the data were processed

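RNA of 19 libraries was counted per gene and per TE subfamily. The authors deposited whole-number counts, and STAR, HTSeq, DESeq2 and the genome build mm10 are named, without roles, per the submitters' processing notes; how TE reads with several matches were counted is not given in the sources used here. Libraries were made with a directional kit, per the labels' protocols. The TE counts of young MT replicate 3 carry a sample name of another form in their header; its label was followed. Each cell set lists its own subfamilies (1066, 1025 and 1018 in the young, old and LK sets), and the smallest sum over a set is 2 counts.

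TE counts were scaled by each library's own gene counts (sizes and TMM factors) and tested with edgeR 4.0.16 (filterByExpr, robust quasi-likelihood test, R 4.3.3), adjusted by Benjamini-Hochberg over all TE subfamilies tested, in 7 comparisons. SE is the log2 fold change divided by the square root of F. Subfamilies named in a cross-set comparison are listed in both sets. ERV1 totals per 1000000 gene counts, without TMM factors, and ratios were compared by two-sided exact permutation tests (numpy 2.4.6). Gene lists were tested with the genes. The value of 1 listed gene is not reported here. The script was tested on simulated data. Gene counts of 26251822 to 68260809 per library set the precision, and members with few counts are the least certain. Alternatives were RLE factors, TE-count scaling, no filter, DESeq2 1.42.0, a fit of all 19 libraries, a replicate block, a Ddx3y covariate, summed replicates and leaving out each library. The rule names members of the MLV, VL30, GLN, MuRRS and MuRVY lineages by name, up to 25 called members of each genotype comparison or interaction (or the 3 with the smallest p), the 5 largest called changes in each direction of the WT comparisons that average 50 counts in whichever group is higher, and the 5 members with the most counts. The members, lists and rule were chosen with earlier results of these data known. Consensus sequences of the members are not used here.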

Additional observations from a re-analysis of the deposited data

Results flagged for a closer look

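Among the young WT libraries, 11 of 51 sets of values of named members held 1 library far from the other 3; chance gives this in about 1 in 20. In 10 of them it was WT replicate 4, which has Ddx3y, and it was the highest: LTRIS6 at 1.65 CPM, LTRIS_Mus at 19.9, MERV1_I-int at 40.8, MuRRS-int at 21.2, MuRRS4-int at 38.1, RLTR14 at 58.7, RLTR1C at 8.97, RLTR24B_MM at 26.8, RLTR30D2_MM at 26.0 and RodERV21-int at 28.8. All TE counts were raised in this library, at 16.91% of gene counts against 11.4 to 12.88% in the other young WT libraries, so these 10 are not independent of each other. For RodERV21-int the other 3 libraries were at 16.9 to 17.3 CPM. The remaining one was LTRIS4B, at 34.9 CPM in WT replicate 2.

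The genotype difference differed between LK and old Cd11b cells, by the interaction test of edgeR, for 18 members. The interaction (LK minus old, log2) was positive for MER31-int (1.29), RLTR24B_MM (0.83), RLTR1A2_MM (0.80), RLTR1B (0.77), RLTR23 (0.72), RLTR14_RN (0.70), RLTR1C (0.70), RMER21B (0.67), MURVY-LTR (0.64), LTRIS_Mm (0.58), RLTR30D2_MM (0.54), MuRRS4-int (0.52) and RLTR4_Mm (0.35). The interaction was negative for MLTR12 (-0.83), RLTR48B (-0.61), MERV1_I-int (-0.50), RLTR4_MM-int (-0.42) and MMVL30-int (-0.41). No cause was tested.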

How the results depend on the processing

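The count of ERV1 members called in LK cells, 26 by edgeR, was 22 with RLE factors, without the low-count filter and with DESeq2, 15 relative to TE counts, 3 in a fit of all 19 libraries and 1 with replicates 2 and 3 summed (RLTR48B). Over all TE subfamilies, 163 calls became 153, 155, 131, 116, 21 and 13 under these alternatives in the same order. Leaving out 1 library gave 7 to 31 ERV1 members and 41 to 262 TE subfamilies. Added after seeing the data, replicates 2 and 3 alone gave 35 (292 TE subfamilies). Replicates 1 and 2 alone gave 5 (31 TE subfamilies), and replicates 1 and 3 alone gave 5 (37). The interaction with cell type, 18 members, gave 0 in the fit of all libraries and with summed replicates, 36 with replicates 2 and 3 alone, and 5 to 27 without 1 library. Over all TE subfamilies, 111 calls became 2, 0, 300 and 54 to 176 under these alternatives in the same order. In old Cd11b cells 1 member was called by DESeq2, 18 with replicates 2 and 3 alone and 0 to 15 without 1 library. Over all TE subfamilies these counts were 6, 190 and 0 to 133. In young cells 2 were called with the Ddx3y covariate and 0 to 1 without 1 library, as for the interaction with age (0 to 1). Over all TE subfamilies these counts were 4, 0 to 1 and 0 to 1. Silencing genes called in LK cells ranged from 2 to 22 and in old cells from 0 to 6 without 1 library, and entry or restriction genes from 4 to 11 and from 0 to 4. The ranges of both lists are not set against the number of all genes called in the same fits.

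Samples of the same replicate number did not all deviate together, between genotypes (correlations from -0.329 to 0.39) or between LK and old Cd11b cells of a genotype (-0.00945 to 0.109), so the number was not used as a pairing. With the replicate block the LK count was 20 of 80 ERV1 members (143 of 813 TE subfamilies). The interaction with cell type gave 10 of 90 (83 of 884 TE subfamilies) and that with age 1 of 110, LTRIS3 (1 of 977). With the block 0 silencing genes and 1 entry or restriction gene were called in LK cells (3 of 14113 genes). In old cells 0 of either list were called with it.

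Relative to TE counts these members reversed with age: LTRIS2 0.75, LTRIS3 0.37, LTRIS4A 0.98, LTRIS6 1.48, LTRIS_Mm 1.35, LTRIS_Mus 0.51, MMERGLN_LTR 1.36, MURVY-LTR 0.39, MuLV-int 1.011, MuRRS-int 1.87, RLTR1B 0.88, RLTR1B-int 1.80, RLTR4_Mm 1.88, RLTR6-int 2.03, RLTR6B_Mm 0.80, RLTR6C_Mm 1.61 and RLTR6_Mm 1.43. Between cell types LTRIS2 (0.66), LTRIS3 (1.13), LTRIS4A (0.34), LTRIS_Mm (0.81), RLTR4_MM-int (0.41), RLTR4_Mm (1.24) and RLTR6-int (0.54) reversed. The shift of the median TE subfamily sets this. In old Cd11b cells MMVL30-int, at -0.04, ran from -0.101 to 0.0751 without 1 library, the highest without WT replicate 1 (edgeR adjusted p 0.0289), and was at 0.0843 with replicates 2 and 3 alone (0.0119); the cause was not tested. Of 3333 values of named members under alternatives, 3177 kept their sign; of the 156 with the other sign, 130 were called neither there nor in the reported fit. In all, 328 values lost the call with the same sign, and 78 gained it. Members with few counts, such as MER31-int, LTR75_1 and LTRIS6 in LK cells, are limited by depth.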

Other observations

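ERV1 made up a different part of the LTR counts in each set: 19.04 to 25.5% in young, 36.3 to 37.8% in old and 31.3 to 36.2% in LK libraries. In LK cells MT libraries had 31.3 to 32.8% and WT libraries 33.4 to 36.2%.

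WT replicate 1 stood apart from WT replicates 2 and 3 in the same direction at 18 months in both cell types for a few members, chosen after their values were seen. LTRIS3 was at 18.6 CPM in old Cd11b and 18.0 in LK cells of WT replicate 1, and at 10.8 to 12.5 in the other 4 WT libraries. MMERGLN-int was at 151.3 CPM in old Cd11b cells of WT replicate 1 and at 184.7 and 186.7 in replicates 2 and 3. In LK cells it was at 254.6 against 434.5 and 436.0 CPM. The labels do not say whether equal numbers share an animal. Young WT replicate 4 had the lowest MMERGLN-int of all 19 libraries, 77.8 CPM, against 149.2 to 213.4 in the other young libraries.

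LTRIS6, of the MuRRS group, had 17 to 31 counts in each old Cd11b library and 0 to 4 counts in each LK library.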
